A study of Mus musculus with 14 samples.

Results

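The second 2 h of GATA6 induction were examined by comparing the accessible regions of 2 h with those of 4 h, in 4 of the 14 libraries of an ATAC-seq time course. ATAC-seq marks open chromatin with a transposase that cuts accessible DNA and inserts adapters. All libraries came from KH2 mouse embryonic stem (ES) cells, labelled C57BL/6, that carry the transgene TRE:GATA6-DSREd2, so that doxycycline (Dox) switches on GATA6. Each library was made from 50000 cells, with 2 libraries at each of 7 time points. Cells at 2 h and at 4 h were cultured alike, in serum medium with LIF and with Dox at 1 µg/mL, and they differ in the labels only by time. Cells at 0 h were in 2i/LIF medium without Dox, so serum and Dox arrived together between 0 h and 2 h. From 16 h on, Dox had been withdrawn after its first 12 h. A serum control without induction is not among the libraries, and the labels do not say whether replicates were separate cultures, so the spread given here may be technical.

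GATA6 is a zinc finger transcription factor that binds GATA motifs, can bind sites covered by nucleosomes, and drives primitive endoderm (PrE), the blastocyst lineage that surrounds the epiblast (Epi). PrE cells express Gata4, Sox17 and Pdgfra and secrete basement membrane, while ES cells hold the Epi program of Pou5f1, Nanog and Sox2. AP-1 factors are dimers of Fos and Jun proteins, which serum and growth factors induce rapidly and which bind the sequence TGAGTCA.

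The peak lists held 58322 and 61988 peaks at 2 h and 59741 and 62604 at 4 h, covering between 27.9 and 30.3 Mb of GRCm38. Joining peaks of the 4 lists wherever 1 bp or more overlapped gave 80741 regions. A region was called in a library when a peak of that library touched it. Gained regions were called in both 4 h libraries and in neither 2 h library, lost regions in both 2 h and neither 4 h library, and shared regions in all 4. Of the 80741 regions, the gained class took 5288 (6.55%), the lost class 4434 (5.49%) and the shared class 39981 (49.5%). The other 31038 were called in 1 library of a time point or in another mixed pattern. Likeness of a pair of lists was measured by the Jaccard index, the shared base pairs over the union. It was 0.679 for the 2 h replicates and 0.680 for the 4 h replicates, against 0.595 ± 0.00401 (SD, n = 4 pairs) between the time points. All 4 pairs across time lay between 0.590 and 0.600, below both replicate pairs. With 2 libraries against 2, an exact two-sided test cannot go below p = 0.333, so the class counts carry no p-value. Replicate 2 held more peaks than replicate 1 at both times, as at all 7 time points of the series. The lists give no depth, and chromatin can be open without reaching the threshold of a peak call.

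The ES cell label was checked on promoters, as peaks no more than 1 kb from a transcription start site, or TSS. Of 6 ES cell markers, 5 had a promoter peak in all 4 libraries, and Nanog, a pluripotency factor, had one in 3 of 4. None of 6 blood cell markers had a promoter peak in any library. Of 6 fibroblast markers, Col1a1 and Thy1 were called in all 4, Pdgfrb in 1 and Col1a2, Dcn and Lum in none. Of 6 neural control genes, Olig2, Pax6 and Gfap were called in all 4, Neurog2 in 3, Neurod1 in 1 and Rbfox3 in none. A called promoter is therefore no measure of expression.

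Gained regions at several PrE genes carried more than 1 GATA motif. The windows below are the 200 bp around the midpoint of 4 gained regions, printed on the plus strand of GRCm38, with GATA motifs in capitals. The motif was searched on either strand as AGATAA or AGATAG, and with a leading T as TGATAA or else as TGATAG. They are shown because they carry the motif that set gained regions apart. The first 3 lie by PrE genes and the last by Myo10, an unconventional myosin of cell protrusions whose gene holds both a gained and a lost region.
Sox17, chr1:4474564-4474763: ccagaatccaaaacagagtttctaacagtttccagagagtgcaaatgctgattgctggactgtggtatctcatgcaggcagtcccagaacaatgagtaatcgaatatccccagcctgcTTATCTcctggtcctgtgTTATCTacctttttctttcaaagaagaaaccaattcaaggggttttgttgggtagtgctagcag
Gata4, chr14:63265311-63265510: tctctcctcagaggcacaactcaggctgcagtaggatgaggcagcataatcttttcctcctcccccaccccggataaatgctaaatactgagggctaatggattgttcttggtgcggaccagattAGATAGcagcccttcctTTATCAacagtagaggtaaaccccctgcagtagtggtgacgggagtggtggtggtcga
Lamb1, chr12:31270927-31271126: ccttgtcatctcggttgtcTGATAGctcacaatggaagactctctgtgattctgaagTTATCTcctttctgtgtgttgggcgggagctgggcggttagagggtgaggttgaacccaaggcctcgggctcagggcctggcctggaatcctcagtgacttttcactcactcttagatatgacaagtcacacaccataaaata
Myo10 gained, chr15:25798637-25798836: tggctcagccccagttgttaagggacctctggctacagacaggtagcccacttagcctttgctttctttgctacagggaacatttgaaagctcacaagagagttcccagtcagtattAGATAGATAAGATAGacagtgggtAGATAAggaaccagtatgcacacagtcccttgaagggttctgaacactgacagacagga
All 4 windows hold at least 2 GATA motifs. The Myo10 window holds 4, of which 3 overlap in a run.

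Lost regions carried the AP-1 motif more often. The next 4 windows are from lost regions, in the same build and on the same strand, with TGAGTCA on either strand in capitals (TGACTCA on the printed strand is the same site). They lie by Rbpj, the DNA-binding effector of Notch signalling, by Myo10 again, by Epcam, an adhesion molecule of epithelia and ES cells, and by Flna, the actin crosslinker filamin A.
Rbpj, chr5:53553765-53553964: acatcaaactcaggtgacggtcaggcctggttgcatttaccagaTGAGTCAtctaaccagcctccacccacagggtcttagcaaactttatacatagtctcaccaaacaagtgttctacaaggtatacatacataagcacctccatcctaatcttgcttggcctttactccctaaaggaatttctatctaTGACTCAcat
Myo10 lost, chr15:25703925-25704124: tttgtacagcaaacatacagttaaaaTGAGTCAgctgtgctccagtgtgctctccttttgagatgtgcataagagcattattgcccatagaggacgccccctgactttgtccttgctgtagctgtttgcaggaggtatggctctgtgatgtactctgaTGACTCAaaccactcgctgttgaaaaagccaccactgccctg
Epcam, chr17:87609821-87610020: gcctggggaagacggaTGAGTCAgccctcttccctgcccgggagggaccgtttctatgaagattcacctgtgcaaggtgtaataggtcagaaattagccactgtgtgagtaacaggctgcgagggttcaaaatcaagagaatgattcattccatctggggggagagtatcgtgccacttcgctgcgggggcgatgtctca
Flna, chrX:74232856-74233055: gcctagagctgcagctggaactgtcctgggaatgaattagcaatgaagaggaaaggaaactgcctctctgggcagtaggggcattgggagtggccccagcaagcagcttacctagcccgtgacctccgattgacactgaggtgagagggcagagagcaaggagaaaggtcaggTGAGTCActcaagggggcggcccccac
The Rbpj and Myo10 windows hold 2 AP-1 motifs each, and the other windows hold 1. The Rbpj window also holds 1 GATA motif, left in lower case. None of these 4 regions was called at 0 h or in any library of 8 to 48 h, so each was seen at 2 h alone.

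GATA motifs were searched in the 200 bp around the midpoint of every region, and shares were taken per replicate pair, the 4 h library against the 2 h library of the same number. Whether equal numbers pair the samples is not known, so this matching may be arbitrary, and each SD is the spread between pairs so matched. In pair shares, 51.9% ± 1.32 (SD, n = 2 pairs) of gained regions held a GATA motif, against 24.2% ± 0.540 of lost and 28.8% ± 0.215 of shared regions. Among regions gained in both replicates the share was 66.4%, against 23.0% of those lost in both and 32.4% of all merged regions. Letters permuted within the motif were found in 22.5%, 24.0% and 20.0% of the same sets. The AP-1 motif had the opposite order. Per pair it lay in 7.06% ± 0.0572 of the gained regions, 23.0% ± 0.312 of the lost and 12.3% ± 0.0153 of the shared (SD, n = 2), and in 5.96%, 29.2% and 12.2% of the classes called in both replicates, with 13.3% over all regions. The permuted AP-1 letters were in 4.65% of gained and 4.33% of lost regions. The gap between gained and lost regions was larger than the spread between pairs for both motifs.

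**Figure D1:**
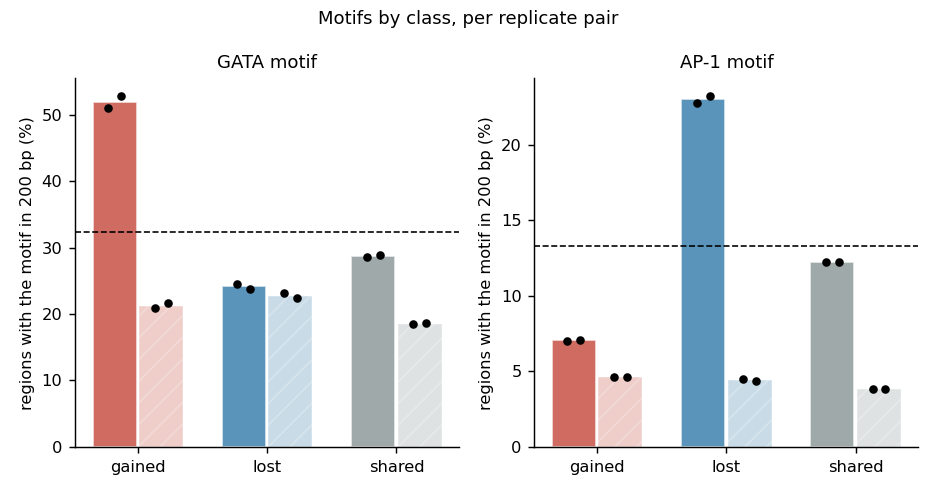
Share of regions (%) with the GATA motif (left) or the AP-1 motif (right) in the 200 bp around the midpoint, for gained, lost and shared regions. Solid bars are means of 2 replicate pairs, points are the pairs, pale hatched bars are the permuted letters, and the dashed lines are all merged regions (32.4% and 13.3%), above which stand the gained bar for GATA and the lost bar for AP-1.

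Each of the 4 GATA spellings was more frequent in gained than in lost regions. AGATAA was in 42.4% of gained and 7.26% of lost regions, with 15.5% over all regions. TGATAA was in 24.5% and 6.27%, AGATAG in 20.4% and 6.59%, and TGATAG in 11.7% and 5.30%. Several motifs in 1 window were a mark of gained regions. Of gained regions, 14.2% held 3 or more GATA motifs, against 0.158% of lost (7 regions), 1.60% of shared and 2.70% of all regions. Lost regions with 2 or more AP-1 motifs numbered 147, against 4 gained regions. GATA motifs in gained regions and AP-1 motifs in lost regions were denser beside the midpoint than at the edges of the 200 bp window. Per 20 bp, gained regions held 152 GATA motifs per 1000 regions just after the midpoint and 86.2 at the window's left edge, while lost regions held between 23.0 and 29.1 throughout. Lost regions held 46.9 AP-1 motifs per 1000 regions just after the midpoint and 18.7 at the right edge.

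**Figure D2:**
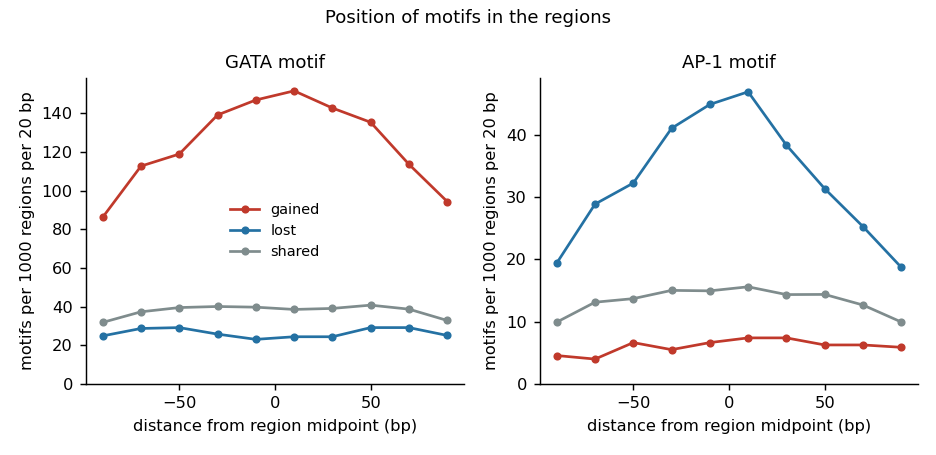
Number of motifs per 1000 regions in 20 bp steps against distance from the region midpoint (bp), for the GATA motif (left) and the AP-1 motif (right) in gained, lost and shared regions. GATA motifs of gained regions peak at 152 beside the midpoint, and AP-1 motifs of lost regions at 46.9.

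Base composition and distance to genes were set beside these shares. The median GC content was 49.0% in gained, 48.5% in lost and 53.0% in shared regions. In each of 6 GC classes, gained regions held the GATA motif more often than lost regions did, from 89.8% against 42.4% under 40% GC to 20.5% against 6.29% at 60% GC or more. Lost regions held the AP-1 motif more often than gained regions in each class, from 21.7% against 7.54% under 40% GC to 7.69% against 2.47% at 60% or more. Within 5 kb of a TSS, 59.8% of gained and 22.5% of lost regions held the GATA motif. Farther away the shares were 70.1% and 23.4%.

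Other motifs, given as shares of regions called in both replicates, were rarer or nearer to their share over all regions. TEAD sites (GGAATG) were in 17.6% of gained, 14.7% of lost and 14.5% of all regions. SOX sites (AACAATGG or AACAAAGG) were in 3.67%, 5.44% and 3.55%, and TCF/LEF sites (CTTTGATC, CTTTGAAC, CTTTGATG or CTTTGAAG) in 3.71%, 5.30% and 3.57%. The site of ESRRB (TCAAGGTCA), an orphan nuclear receptor of naive ES cells, was in 0.719% of gained, 1.78% of lost and 0.975% of all regions. The POU octamer (ATGCAAAT), bound by POU5F1, was in 1.93%, 3.25% and 2.49%. The KLF site (GGGTGTGG or GGGCGTGG) ran the other way, with 7.68% of gained, 5.59% of lost and 7.91% of all regions. FOXA sites (TGTTTAC or TGTTTGC) were in 6.60% of gained and 6.52% of lost regions. The composite site of OCT4 and SOX2 was in 0.0567% of gained, 0.474% of lost and 0.321% of all regions, and the EGR site (GCGTGGGCG or GCGGGGGCG) in 0.0946%, 0.857% and 1.06%. The CTCF core was in 1.72% of gained, 1.15% of lost and 2.64% of all regions. By replicate pair it was in 2.98% ± 0.110 of gained and 2.20% ± 0.105 of lost regions (SD, n = 2 pairs), so that gained regions lay on either side of the share over all regions, as did those with the KLF site, at 8.30% ± 0.103 by pair, the SOX site, at 3.40% ± 0.186, and the TCF/LEF site, at 3.54% ± 0.0562.

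Calls in libraries that did not choose the classes were then read. Regions gained in 1 replicate pair were looked up in the other pair, where 60.9% were called at 4 h and 27.9% at 2 h, a difference of 33.0 ± 0.186 points (SD, n = 2 directions). Regions lost in 1 pair were called in 58.4% at 2 h and 30.2% at 4 h of the other pair, a difference of 28.2 ± 2.16 points. Both directions gave the sign of the class each time, while 7.83% and 8.34% of the gained and lost regions of 1 pair were in the opposite class of the other.

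Of the 10 libraries outside 2 h and 4 h, those of 8 h came closest to the gained class. The gained regions were called at 18.8% and 20.6% in the 0 h libraries, at 78.5% and 76.4% at 8 h, at 69.2% and 73.8% at 16 h, at 53.0% and 54.0% at 24 h, and at 41.8% and 43.7% at 48 h. Every later library lay above both 0 h libraries, and the shares at 8, 16, 24 and 48 h were each lower than those before, with no overlap between neighbouring time points. The lost regions were called at 38.5% and 42.1% at 0 h and between 11.5% and 14.6% in all 8 libraries of 8 to 48 h. Gained regions were called more often at 8 to 48 h than at 0 h by 41.6 points, and lost regions less often by 27.5 points. In an exact two-sided permutation test over these 10 libraries each gave p = 0.0444 (Benjamini-Hochberg adjusted 0.0444 over 2 tests), the smallest that the 45 arrangements allow. The exact permutation p of both was above 0.05 with the replicate block (0.08), without the 48 h libraries (0.0714), without any 1 library of 8 to 48 h (0.0556) and without a 0 h library (0.222), in each case the smallest those fewer arrangements allow. Medium and Dox both differ between 0 h and the later libraries and cannot be told apart in this test. The classes were also chosen at 2 h and 4 h, the neighbours in time of 0 h and 8 h, which favours the signs found. Libraries of 8, 16, 24 and 48 h were taken as a single group, although they are different time points. The p-values therefore do not measure a change independent of how the classes were chosen. The shared regions were called in 79.5% ± 0.904 (SD, n = 2) at 0 h, 87.8% ± 0.00177 at 8 h and 61.3% ± 0.852 at 48 h.

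**Figure D3:**
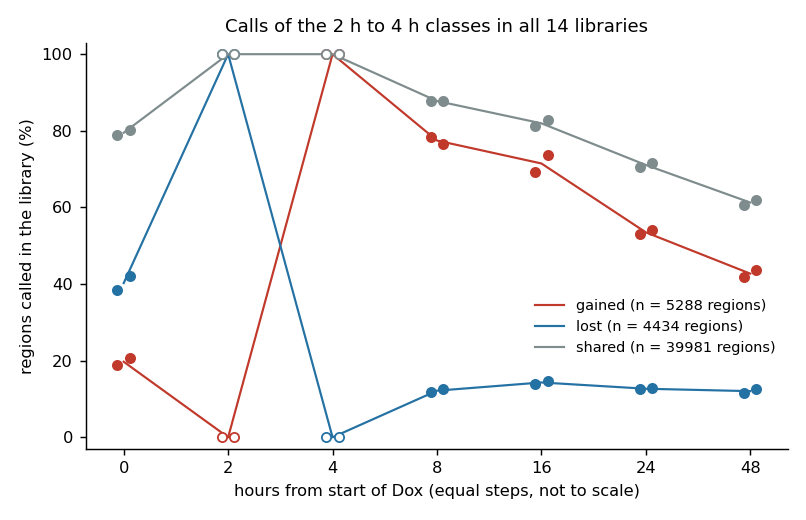
Share (%) of the gained, lost and shared regions called in each of the 14 libraries, against hours from the start of Dox in equal steps. Points are libraries, lines join the means, open points at 2 h and 4 h are the libraries that set the classes, and gained regions sit at 76.4% to 78.5% at 8 h and lost regions at 11.8% to 12.5%.

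The calls at 0 h split both classes. Of gained regions, 3959 (74.9%) were called in neither 0 h library, 573 in 1 and 756 (14.3%) in both, so that the last were called at 0 h, missed at 2 h and called again at 4 h. The GATA motif was in 78.3% of the first set and in 30.0% of the last, close to the 32.4% of all regions. It was in 83.2% of the 2957 gained regions called in neither 0 h and both 8 h libraries. Missing from both 0 h libraries and present in all 8 libraries of 8 to 48 h were 1234 gained regions (GATA motif in 84.1%). A further 1315 were called in neither 0 h, both 8 h and neither 48 h library (GATA motif in 83.7%).

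Lost regions were of more than 1 kind. Called in neither 0 h library were 2336 (52.7%), of which 48.3% held the AP-1 motif. Called in both 0 h libraries were 1472 (33.2%), of which 5.64% held it, below the 13.3% of all regions. Seen at 2 h alone, with no call at 0 h or from 8 h on, were 1918 regions (43.3% of the lost class), and 53.1% of these held the AP-1 motif. Another 988 were called in both 0 h libraries and in none from 8 h on, of which 6.88% held the AP-1 motif and 19.5% the GATA motif. A smaller set of 106 lost regions was called in all 8 later libraries.

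Regions that were called in both 2 h libraries and in neither 0 h library were followed by motif. No call after 2 h chose them, but their extents and midpoints came from the merge that included the 4 h lists. There were 10883 such regions, of which 31.5% held only the GATA motif, 25.5% only the AP-1 motif, 15.4% both and 27.6% neither. At 4 h, those with only the GATA motif were called in 83.8% ± 1.88 (SD, n = 2 libraries), those with both motifs in 78.3% ± 1.94, those with neither in 61.8% ± 2.21, and those with only the AP-1 motif in 59.0% ± 2.04. The sets with a GATA motif lay above the others in both libraries. The values of the last 2 sets overlapped, with 60.2% and 63.3% for neither motif and 57.5% and 60.4% for AP-1 only. At 8 h the order was 71.5% ± 0.598 for GATA only, 58.5% ± 0.842 for both, 44.8% ± 0.306 for neither and 32.5% ± 0.459 for AP-1 only. At 48 h it was 36.3% ± 0.742, 14.8% ± 0, 22.1% ± 0.353 and 6.69% ± 0.484, so that regions with both motifs had fallen below those with neither. Regions called in both 2 h and both 0 h libraries were called at 4 h in 92.6% ± 0.870 with GATA only and 92.3% ± 0.748 with AP-1 only, a difference within their spread. Later these sets lay apart beyond their spread, at 83.8% ± 0.425 and 80.5% ± 0.528 at 8 h and at 57.3% ± 0.674 and 45.3% ± 0.880 at 48 h. Of the 34507 regions called in both 2 h and both 0 h libraries, 25616 held neither motif. They were called in 91.7% ± 0.599 at 4 h, 85.2% ± 0.298 at 8 h and 68.1% ± 0.847 at 48 h. At 8 h and 48 h they lay above the regions with GATA only. Those with both motifs were called in 86.2% ± 1.08 at 8 h and 46.1% ± 0.307 at 48 h.

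**Figure D4:**
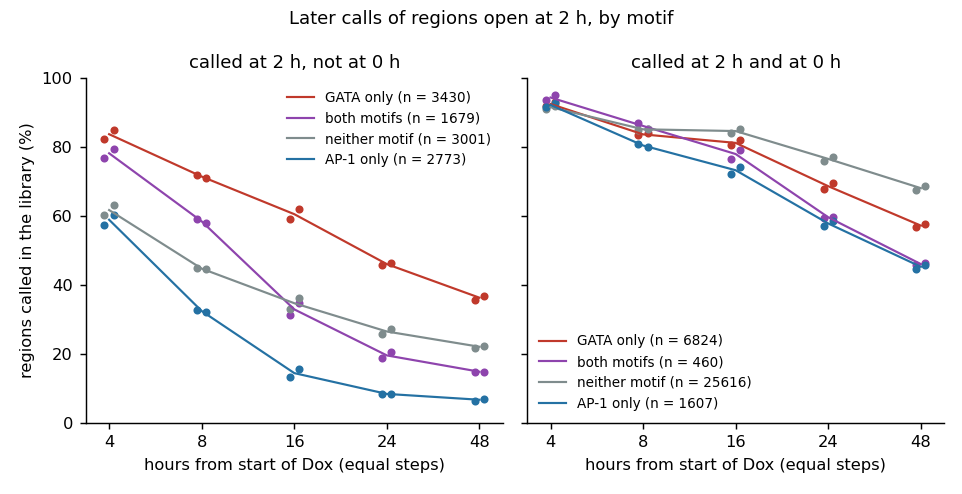
Share (%) of regions called in each library from 4 h to 48 h, for regions called in both 2 h and neither 0 h library (left) and in both 2 h and both 0 h libraries (right), split by motif. Points are libraries and lines join the means of 2, with GATA only starting at 83.8% and AP-1 only at 59.0% on the left and at 92.6% and 92.3% on the right.

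Gained and lost regions were weaker and more distal than shared regions. Scores were ranked within each list as percentiles, where 100 is the highest peak, since their scale is not given. The median percentile was 28.9 ± 2.06 (SD, n = 2 libraries) for gained regions at 4 h and 24.5 ± 1.79 for lost regions at 2 h, while shared regions had 65.6 ± 1.18 in the 4 h and 65.7 ± 1.57 in the 2 h lists. Above the 90 percentile of a list lay 0.189% of gained regions and no lost region, against 15.2% of shared regions at 4 h. These ranks come from the libraries that set the classes. A region took the highest percentile of the peaks of a list that touched it, and wider regions can hold more peaks. The ranks of gained regions were higher with more GATA motifs, from 21.7 ± 1.51 with 0 to 28.7 ± 1.77 with 1, 34.8 ± 2.48 with 2 and 39.9 ± 2.05 with 3 or more. Their calls at 8 h had the same order, from 65.3% ± 0.916 to 76.4% ± 2.63, 87.6% ± 0.880 and 93.5% ± 0.944. At 24 h they were 52.9% ± 0.359, 52.0% ± 0.561, 53.8% ± 1.13 and 57.9% ± 1.51. At 48 h they were 41.3% ± 2.47, 39.7% ± 0.647, 44.3% ± 1.13 and 50.3% ± 0.472. The order thus no longer held at these later times, where the mean with 1 motif lay below that with 0. The share called in neither 0 h library was 48.5%, 78.8%, 94.7% and 98.9% in the same order. Lost regions with 0, 1 and 2 or more AP-1 motifs had 2 h ranks of 23.2 ± 1.28, 26.5 ± 2.20 and 28.7 ± 2.45, and 38.5%, 85.6% and 100% of them were called in neither 0 h library.

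Midpoints within 5 kb of a TSS made up 38.9% ± 0.152 of the gained regions per pair (SD, n = 2), 39.0% ± 0.574 of the lost and 52.3% ± 0.489 of the shared, with 46.9% over all regions. The difference between gained and lost was within the spread between pairs. Within 1 kb lay 12.3% of the regions gained in both replicates, 13.98% of those lost and 36.1% of those shared. The median distance to a TSS was 8919 bp for gained, 9334 bp for lost and 3971 bp for shared regions. Introns held the midpoint of 52.9% of gained and 51.5% of lost regions, intergenic DNA 39.6% and 41.1%, and coding exons 2.14% and 1.62%. The median widths were 424, 454 and 603 bp for gained, lost and shared regions. Of gained regions, 9.19% had another gained region within 10 kb, and 8.50% of lost regions had another lost one.

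The 6 highest-ranked gained regions over 5 kb from a TSS and the 3 highest within 5 kb all held a GATA motif. None of these 9 was called at 0 h, and 1 lay near a textbook PrE gene. Over 5 kb from a TSS, the first was in an intron of Plcg2, a phospholipase C of immune receptor signalling, at chr8:117593980-117594470, with percentiles of 94.6 and 91.8 in the 4 h libraries. It was called in both libraries of 8 h and 16 h and in none of 24 h and 48 h. The next 5 were in introns of Pard3b, Smarcd3, Morn1, Prdm16 and Pdzrn3, with percentiles between 86.8 and 93.8. Smarcd3 is a subunit of the BAF chromatin remodelling complex and Prdm16 a zinc finger regulator. Within 5 kb of a TSS the first gained region, at chr5:75143609-75144075 with 4 GATA motifs and percentiles of 91.8 and 94.3, had the pseudogene Olfr1401-ps1 as its nearest TSS. Its nearest protein-coding gene was Pdgfra, the receptor that marks PrE, 8.45 kb away, and it was called in both libraries of every time point from 8 h to 48 h. The second lay 1.09 kb from a TSS of Uba2, a subunit of the SUMO-activating enzyme. By mean percentile the Uba2 region ranked below a gained region by Car4, which lay over 5 kb from its TSS and held no GATA motif.

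The highest lost region was in an intron of Gas2, an actin-associated protein, at chr7:51964584-51965419, with percentiles of 86.3 and 88.2 at 2 h. It was called in no other time point and held no AP-1 motif. Named were the 6 highest lost regions over 5 kb from a TSS and the 3 highest within 5 kb. Of these 9, 5 were called in both 0 h libraries, 1 in 1 and 3 in neither, and 3 held an AP-1 motif. Near coding genes they included introns of Sez6l and Enthd1 and an exon of Exoc1, a subunit of the exocyst. A region 6.88 kb from the TSS of Fam13c was called in both libraries of 0 h, 2 h and 16 h. It was called in 1 library of 24 h and in neither of 4 h, 8 h and 48 h.

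Regions were then grouped by the gene of the nearest TSS within 50 kb. Of 75110 regions so placed, 6.38% were gained and 5.33% were lost, and these shares are the background for each list. The study's list of PrE genes, made from blastocyst single-cell data and not from these libraries, had 2089 regions, of which 172 (8.23%) were gained and 94 (4.50%) lost. Its list of Epi genes had 1117 regions, with 55 (4.92%) gained and 57 (5.10%) lost. Per replicate pair, PrE regions were gained in 18.7% ± 0.166 and lost in 13.6% ± 1.67, Epi regions were gained in 13.9% ± 0.968 and lost in 15.5% ± 0.0997, and all placed regions were gained in 17.8% ± 0.446 and lost in 16.6% ± 0.300 (SD, n = 2 pairs). PrE regions thus lay above the background for gains and below it for losses in both pairs. Epi regions lay below it for both, although with 50% of a region covered 5.998% of them were lost against 5.89% of all, and by protein-coding TSSs 5.54% against 5.07%. Without 1 of the 4 libraries, PrE regions were gained in 10.7% to 14.3% against 9.14% to 12.9% of all, above it each time, and Epi regions were lost in 8.36% to 10.4% against 8.40% to 11.8%, below it each time but nearly equal without 4 h replicate 1 (8.36% and 8.40%) and replicate 2 (9.51% and 9.55%). Of the gained regions, 56.98% of those near PrE genes and 25.5% of those near Epi genes were still called in both 48 h libraries, and 72.7% and 65.5% held the GATA motif. Of the lost regions, 31.9% and 33.3% held the AP-1 motif.

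Lists of textbook genes gave smaller numbers. Among 45 regions of GATA factors and their FOG cofactors, 9 were gained (20.0%) and 2 lost. Among 68 regions of PrE factors and receptors, 10 were gained (14.7%) and 2 lost, and among 108 regions of basement membrane genes, 11 (10.2%) and 2. ERK feedback and FGF genes had 10 gained and 4 lost of 111, YAP and TEAD target genes 7 and 3 of 92, SRF and actin cytoskeleton genes 6 and 6 of 81, and trophectoderm genes 5 and 2 of 70. Near the background for gains were naive pluripotency genes, with 9 gained and 4 lost of 134, and Wnt target genes, with 5 and 4 of 76. Formative and primed epiblast genes had 4 and 2 of 71, Nodal pathway genes 3 and 2 of 59, ES cell markers 3 and 2 of 52, and BMP and Id genes 1 and 0 of 52. Immediate-early genes had 3 gained and 4 lost of 98 (3.06% and 4.08%), and none of the 30 regions of the AP-1 factors themselves was gained or lost. Neural control genes, a comparison list, had 2 gained and 2 lost of 21, blood cell markers 1 and 0 of 5, and fibroblast markers 0 and 0 of 9.

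**Figure D5:**
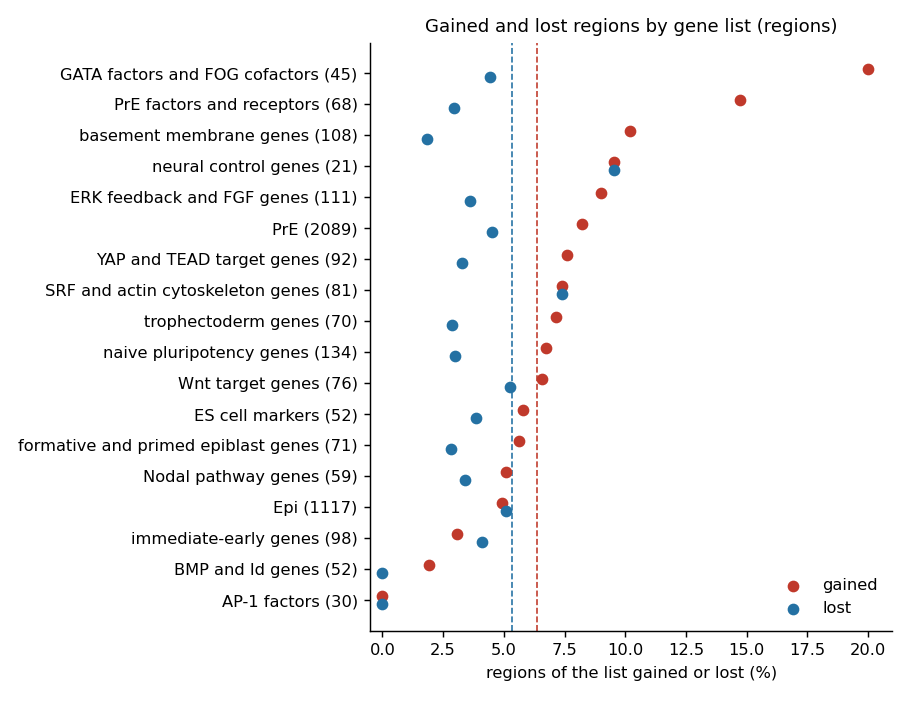
Share (%) of the regions of each gene list that were gained (red) or lost (blue), with the number of regions in parentheses, for lists with at least 20 regions. Dashed lines are the shares over all regions within 50 kb of a TSS (6.38% gained, 5.33% lost), GATA factors and FOG cofactors reach 20.0% gained, and AP-1 factors are at 0 for both.

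At the GATA genes, gains were spread over several members. Gata4, a GATA factor of PrE, heart and gonad (chr14:63198922-63271692), had 3 gained and 0 lost of 8 regions. The gained region in its intron at chr14:63265276-63265546, whose window is printed above, had percentiles of 57.7 and 64.7 and was called in both libraries of every time point from 4 h to 48 h and in none of 0 h and 2 h. A second at chr14:63283429-63284069, upstream of the gene with 3 GATA motifs, had the same calls and percentiles of 29.6 and 9.27. The third, at chr14:63221497-63221622, held no GATA motif and 1 AP-1 motif and was no longer called at 24 h. A Gata4 region outside the classes, at chr14:63231057-63231502 with 5 GATA motifs, had a percentile of 1.19 in 1 of the 2 h libraries and of 77.9 and 82.6 at 4 h. Gata1, the GATA factor of red blood cells, had a gained intron region with 4 GATA motifs at chrX:7966033-7966554, with percentiles of 74.9 and 75.2. Gata3, of trophectoderm and T cells, had one with 3 GATA motifs at chr2:9860110-9860564, with percentiles of 31.4 and 32.5. Gata1 is no marker of PrE, and its region was called in both libraries of each time point from 4 h to 48 h.

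Gata6 itself had 1 gained region, in an intron 19.3 kb from the nearest TSS, with percentiles of 78.8 and 63.7, called from 4 h to 48 h and not before. A shared region over a Gata6 coding exon was called in neither 0 h library, in both of 2 h and of 4 h, in 1 of 8 h and in none after that. The transgene carries a GATA6 coding sequence too, so DNA of the transgene and of the endogenous exon cannot be told apart there. The promoter region 0.213 kb from a TSS was called in all 14 libraries.

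Sox17, a SOX factor of endoderm, had 1 gained region of 3, at chr1:4474481-4474847, 18.9 kb from its TSS, with percentiles of 74.24 and 75.04 and calls in both libraries from 4 h to 48 h. Sox7 had none of 2 regions gained or lost, and both regions nearest to Pdgfra were shared, the gained region named above having another nearest TSS. Fgfr2, an FGF receptor, had the 3 highest gained regions of its list. The first, at chr7:130148641-130149532, had percentiles of 90.5 and 82.7 and was called from 4 h to 48 h. The second, at chr7:130184932-130185461, was called at 4, 8 and 16 h only.

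Basement membrane genes, which PrE cells use to lay down their matrix, had gained regions at Lamb1, a laminin chain, with percentiles of 80.8 and 88.7 at chr12:31270753-31271300. Serpinh1, the collagen chaperone HSP47, had one 0.842 kb from its TSS at chr7:99353843-99354318, with percentiles of 79.1 and 89.4. P4ha1, a subunit of collagen prolyl hydroxylase, had one over a coding exon at chr10:59348215-59348585, with percentiles of 84.2 and 82.1. All 3 regions held at least 2 GATA motifs and were called in both libraries of each time point from 4 h to 48 h and in none of 0 h and 2 h. Not all of the highest gained regions of the PrE list carried the motif. The windows by Car4, a carbonic anhydrase, with percentiles of 90.5 and 87.0, and by Gramd1b, a sterol transporter, with 85.7 and 89.0, held none.

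Among pluripotency genes, gains and losses lay side by side. Tet2, which oxidises methylcytosine, had a lost intron region at chr3:133524398-133525217 with percentiles of 72.0 and 65.9 at 2 h, called in both 0 h libraries and in none from 4 h on. It also had a gained intron region at chr3:133508824-133509166, called from 4 h to 24 h and not at 48 h. Pou5f1, the central pluripotency factor, lost 1 of 3 regions, at chr17:35490413-35490709, 15.5 kb from its TSS. That region was called in both 0 h and both 2 h libraries, with percentiles of 47.8 and 61.3 at 2 h, and in none from 4 h on, and it held neither motif. A Pou5f1 region at chr17:35503868-35504415, 1.88 kb from the TSS, was called in all 14 libraries with percentiles between 89.9 and 92.2 in the 4 used here. Esrrb had 2 gained, 1 lost and 14 shared of 28 regions. Nanog, Sox2 and Klf4 had no region in the gained or lost class, with 2, 2 and 3 regions each. Tfrc, the transferrin receptor on the Epi list, had a gained region 0.649 kb from its TSS at chr16:32608033-32608508 with percentiles of 80.8 and 81.0, called from 4 h to 48 h.

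The highest lost regions of the Epi list were seen at 2 h alone in 4 of 6 cases. The Rbpj region, in an intron at chr5:53553686-53554043, had percentiles of 74.3 and 76.4 at 2 h. The Epcam region, 26.1 kb from the TSS at chr17:87609733-87610109, had 69.4 and 70.7, and the lost intron region of Myo10 at chr15:25703877-25704172 had 30.4 and 53.4. The gained intron region of Myo10, at chr15:25798491-25798982, had 70.3 and 72.7 at 4 h and was called in both libraries of 8 h and 16 h, in 1 of 24 h and in none of 48 h. Of the 6 highest lost Epi regions, 5 held an AP-1 motif, the exception being that of Pou5f1, and 2 were called in both 0 h libraries, those of Pou5f1 and of Liph, a lipase. On the PrE list the highest lost region lay by Twf1, an actin monomer binder, with percentiles of 77.2 and 63.8, and was called in both 0 h libraries and in none from 4 h on.

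Several signalling and lineage genes had both kinds of region or a single high one. Yap1, the coactivator of TEAD factors, had a gained intron region at chr9:7959322-7959628 with 1 GATA motif and percentiles of 78.7 and 70.6, called from 4 h to 24 h. Tead4, a TEAD factor of trophectoderm, had a gained region 0.187 kb from a TSS with percentiles of 57.3 and 52.4 and a lost intron region with 8.95 and 7.92. Krt18, a keratin of trophectoderm, had a gained region at chr15:102025024-102025398 with 2 GATA motifs and percentiles of 45.9 and 66.3, called from 4 h to 48 h. Dnmt3a, a DNA methyltransferase of the formative list, had a gained intron region at chr12:3888017-3888326 with percentiles of 57.5 and 75.9, called over the same time points.

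Sp8, a zinc finger factor of the Wnt target list, had the 2 highest gained regions of that list, each with 3 GATA motifs and calls from 4 h to 48 h. Lgr5, a receptor of the same list, had a lost region at chr10:115451549-115451906 with 2 AP-1 motifs and percentiles of 32.0 and 12.7, seen at 2 h alone. Smad2, a mediator of Nodal signals, had a gained intron region with 1 GATA motif and percentiles of 76.6 and 75.3, called from 4 h to 48 h. Fgf4, the FGF ligand that Epi cells secrete, had a lost region at chr7:144857760-144858182 with percentiles of 35.8 and 13.6, called in both 0 h libraries and in none from 4 h on. Myl9, a myosin light chain, had a gained intron region at chr2:156779570-156779971 with 7 GATA motifs and percentiles of 33.0 and 42.0, called at 4 h and 8 h and in no later library. Cnn3, a calponin, had a lost region 0.095 kb from its TSS that was called in both libraries of 2 h and of 8, 16, 24 and 48 h, and in none of 0 h and 4 h.

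At Fos, Jun and Egr1, a zinc finger immediate-early factor, no region was gained or lost, and 7 of 8, 1 of 1 and 5 of 7 regions were shared. Arc, an immediate-early gene, had a lost region at chr15:74687321-74687907, with percentiles of 53.0 and 62.1, seen at 2 h alone. Nr4a1, an orphan nuclear receptor, had one lost region, seen at 2 h alone, and one gained region, called from 4 h to 48 h. Dusp1, a MAP kinase phosphatase, had a gained region at chr17:26514105-26514789 with 1 GATA motif, called from 4 h to 24 h. Flna and Vcl, actin-linked proteins of the SRF list, each had a lost region with an AP-1 motif. The Flna region was seen at 2 h alone, and the Vcl region was called in 1 library of 8 h besides.

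The genes with the most gained regions were Kalrn, Pde4d, Tns3 and Zfp704, with 5 each, and Bcr, with 4. Their regions of any class numbered 48 for Pde4d, 40 for Tns3, 28 for Kalrn, 25 for Bcr and 17 for Zfp704. A total of 19 genes had at least 4. Tns3, a tensin of focal adhesions, also had 6 lost regions, and Etl4 had the most lost regions, 7 of 41, of which 4 held the AP-1 motif.

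Shared regions were compared by rank. In 1730 shared regions (4.33%) both 4 h percentiles exceeded both 2 h percentiles by at least 20 points, and in 1514 (3.79%) the reverse held. These counts were 1539 and 1521 with the 50000 highest peaks of each list. Fewer regions ranked higher than lower at 4 h without 4 h replicate 1 (2956 and 3406) and without 4 h replicate 2 (2517 and 3882). More ranked higher without 2 h replicate 1 (3570 and 2932) and without 2 h replicate 2 (4116 and 2437). Each time, more regions ranked higher at the time point that kept 2 libraries, so the order of the counts turned with the library left out. The GATA motif was in 68.1% of the regions that ranked higher at 4 h and in 22.3% of those that ranked lower, and the AP-1 motif in 8.15% and 28.1%. The higher-ranked regions were called in 37.0% at 0 h and 97.4% at 8 h, and the lower-ranked ones in 62.6% and 36.7%. The largest rise was at chr7:73765285-73765946, 0.256 kb from the TSS of Fam174b, a membrane protein, with percentiles of 0.695 and 4.88 at 2 h and 81.4 and 88.3 at 4 h. The largest fall was at chr17:88213365-88214451, with 78.9 and 83.2 at 2 h and 5.45 and 5.89 at 4 h, and it was called in both 0 h libraries and in none from 8 h on. The next 2 falls, one in an intron of Ptprg, a receptor tyrosine phosphatase, were called at 2 h and 4 h alone, and all 3 held an AP-1 motif.

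The steps before and after this one are set beside it, each with a merge of its own 4 lists. They share the 2 h or the 4 h libraries with it, so they are not independent of it. From 0 h to 2 h, 10948 regions were gained and 7976 lost of 85186. The GATA motif was in 47.5% of those gained, 17.1% of those lost and 25.6% of all regions of that step. For the AP-1 motif the shares were 41.8%, 1.10% and 11.9%. From 4 h to 8 h, 3988 were gained and 4748 lost of 81025. The GATA motif was in 56.7% of gained, 33.6% of lost and 35.9% of all regions, and the AP-1 motif in 3.96%, 23.7% and 10.4%.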

How the data were processed

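ATAC-seq peak lists of 14 libraries were read, of which the 4 of 2 h and 4 h set the classes. The authors ran the ENCODE pipeline for ATAC-seq and deposited 1 list per library. In the file names, peaks are said to have passed an irreproducible discovery rate of 0.05 on pseudoreplicates of that library and a blacklist, so replicates were not pooled. The submitters' processing notes name mm10, GRCm38 and deepTools. Each deposited peak carries 1 unnamed value, read as a score of the authors with no stated scale and used only as a percentile within its list. The lists hold no read counts, so depth is unknown, no interval that needs it is given, and no model of read counts was fitted. The samples were grouped by time point from the labels.

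Coordinates are GRCm38, counted from 1, with genes and start sites of GENCODE M21 and sequence of GRCm38.p6. Distances were taken from the region midpoint, and a region was placed with the gene of the nearest start site within 50 kb. Motifs were searched in 200 bp. Calls were counted by 1 bp of overlap. The exact permutation tests over the 10 libraries of other time points measure only the spread between these samples. Python 3.11.15, numpy 2.4.6, pandas 2.3.3 and scipy 1.17.1 were used, and the class and motif steps were tested on simulated data.

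Members, gene lists, motifs and tests were chosen with earlier results of these data known. Regions were ranked by the mean percentile of the libraries that called them. Named were the 6 highest of each class over 5 kb and the 3 highest within 5 kb of a start site, up to 3 of each class per gene list (6 for PrE and Epi), the 5 genes with most gained and most lost regions, 13 loci, and the 3 largest rises and falls in rank among shared regions. Alternatives were another overlap, merging distance, peak number, window, gene distance, rank gap and replicate set.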

Additional observations from a re-analysis of the deposited data

How the results depend on the processing

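Some orders between results turned. Without 2 h replicate 1 there were 7290 gained and 9406 lost regions, where lost regions outnumbered gained ones. Fewer shared regions ranked higher than lower without 4 h replicate 1 (2956 and 3406) or 2 (2517 and 3882). The share near a TSS was higher in gained than in lost regions with merging and without replicate 2 of 2 h or of 4 h. Class sizes depend on how many libraries must agree, and depth, which the lists do not give, cannot be told apart from openness for weak peaks. Asking for 1 library of a time point and none of the other gave 13403 gained and 12556 lost regions. Leaving out 1 library of 2 h or 4 h gave 7290 to 10223 gained and 6727 to 9406 lost regions, with 10223 gained without 4 h replicate 1 and 9406 lost without 2 h replicate 1, because fewer calls then have to agree. Of 58 named gained regions 49, and of 50 named lost regions 36, kept their class with the 50000 highest peaks per list, and none took the opposite class in any setting.

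The held-out difference of gained regions was 31.3 points with 50% of the region covered, 34.3 with peaks up to 100 bp apart merged and 39.5 with the 50000 highest peaks, and that of lost regions was 35.8 with the last. In the later libraries the replicate block left the differences at 41.6 and 27.5 points with p = 0.08, the smallest exact permutation p its 25 arrangements allow. Without the 48 h libraries they were 47.8 and 27.2 points with an exact permutation p of 0.0714, again the smallest possible. Leaving out 1 library gave 28.2 to 44.4 and 22.0 to 29.3 points, with an exact permutation p of 0.0444 without a library of 2 h or 4 h, 0.222 without one of 0 h and 0.0556 without one of 8 to 48 h. Differences between replicates 1 and 2 correlated at 0.00979 for calls and 0.0503 for ranks between 2 h and 4 h. These values gave no sign that replicate numbers pair the samples, but 2 time points cannot settle whether equal numbers belong together. The pairs behind the SDs were thus a matching by number that may be arbitrary. Absence at 0 h ranged from 60.6% to 71.8% of gained and from 45.1% to 55.4% of lost regions when 1 library was left out.

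For the order gained, lost, shared, the GATA share was 65.2%, 42.9% and 55.7% in the whole region, which is wider in shared regions, 57.3%, 26.4% and 37.5% over 5 kb from a TSS and 21.3%, 22.8% and 18.5% with permuted letters. The AP-1 share was 12.0%, 32.8% and 23.2%, then 7.48%, 25.5% and 16.2%, then 4.62%, 4.44% and 3.84%. With 50% covered, GATA was 50.2% of gained and 29.2% of shared and AP-1 6.85%, 21.6% and 12.7%. With merging, AP-1 was 7.22%, 23.9% and 12.2%. With the 50000 highest peaks, GATA was 54.5% of gained and 28.3% of shared and AP-1 7.17% of gained and 12.1% of shared. Leaving out 1 library gave 7.06% to 7.14% for AP-1 in gained and 12.3% to 12.4% in shared regions.

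By width in place of score the median percentiles were 40.6, 41.9 and 60.1. With 50% covered they were 26.6 for lost and 67.2 for shared, and with the 50000 highest peaks 63.8 for shared regions. Leaving out 1 library gave 18.1 to 30.4, 16.4 to 27.6 and 62.6 to 64.0. The share near a TSS was 16.8%, 18.7% and 34.4% within 1 kb and 29.1%, 29.5% and 43.3% by protein-coding TSSs. It was 40.002% of gained and 40.4% of lost with 50% covered, 37.4%, 37.0% and 51.5% with merging, and 40.04% of lost and 53.8% of shared with the 50000 highest peaks. Leaving out 1 library gave 39.1% to 39.3% and 38.9% to 39.7%.

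PrE regions were gained in 6.72% within 10 kb (background 5.57%), 7.97% by protein-coding TSSs (6.09%) and 17.7% by 1 library (16.2%), and lost in 12.7% by 1 library (15.3%). Epi regions were gained in 12.7% by 1 library, and lost in 5.998% with 50% covered (5.89%), 4.68% with merging (5.27%), 4.15% within 10 kb (4.58%), 5.54% by protein-coding TSSs (5.07%) and 13.6% by 1 library. The loss at Epi regions thus lay on either side of its background. Leaving out 1 library gave 10.7% to 14.3% and 7.09% to 9.90% for PrE and 6.86% to 9.83% and 8.36% to 10.4% for Epi, against backgrounds of 9.14% to 12.9% gained and 8.40% to 11.8% lost. In each of these 4 settings PrE was above its background for gains, and PrE for losses and Epi for both were below theirs. Rank gaps of 10 and 30 points gave 3890 and 770 higher and 3839 and 597 lower shared regions, and leaving out 1 library 2517 to 4116 and 2437 to 3882.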
